A study of Danio rerio with 5 samples.

Results

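The genes described here code for the proteasome and were chosen by name: every gene whose symbol in the platform annotation begins with psm, a letter from a to g and a digit, from probe sets paired with exactly 1 symbol. The rule found 50 genes among 8793 genes with a single symbol, and where a gene had several probe sets, the brightest on average over the 5 arrays stood for it. By role they were 8 alpha and 7 standard beta subunits of the core, 5 immune or related beta subunits, 7 ATPases and 4 other subunits of the base, 7 lid subunits, 3 activator subunits, the regulator psmf1 and 6 assembly factors. Another 2 genes, psmc3ip and psme3ip1, carry such a symbol but are no proteasome subunits: the first is a factor of meiotic recombination and the second a partner protein of psme3. No level filter was used, and all 50 genes are accounted for. RefSeq's gene table holds 9 further genes that fit the symbol rule and were not analysed here, among them psma3, psmd14, psme4a and psme4b.

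The samples were wild-type young adult zebrafish of the AB line, kept for 24 h without food with benzene, toluene, formaldehyde, a mix of these 3 compounds (BTF mix) or the vehicle DMSO alone. The 3 compounds and the mix were made up in DMSO. Each of the 5 conditions had 1 Affymetrix array of total RNA, so no difference could be set against replicates and nothing was tested. Neither the tissue nor the doses or the number of fish per array are stated in the sources used here, and the labels give the same entry for sex to every sample, which names neither males nor females.

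The proteasome is the large protease that breaks down proteins tagged with ubiquitin. Its barrel-shaped core is built of outer rings of alpha subunits and inner rings of beta subunits, of which beta1 (psmb6), beta2 (psmb7) and beta5 (psmb5) carry the active sites. A regulatory particle with a base of ATPases and a lid recognises, unfolds and feeds in the tagged protein. In cells of the immune system, and in other cells after interferon, the active beta subunits can be replaced by immune forms, which changes the peptides that are cut for display on class I MHC molecules. An alternative cap, the ring of psme1 and psme2, is induced by the same signals in mammals, whereas the related psme3 forms a cap found in the nucleus.

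All levels below are log2 signals of a probe set, and all differences are log2 values of an exposed array minus the DMSO array, so a difference of 1 is 2-fold. Levels of different probe sets are not compared with each other. The array of the BTF mix stood apart from the other 4: across probe sets its correlations with them ran from 0.693 to 0.739, against 0.979 to 0.992 among the 4. Of 21 measured oocyte markers, 20 were at least 2-fold lower with the mix than with DMSO, beside 27.8% of all genes. Their summed level was 11.14 on the mix array and 17.36 to 17.48 on the others, a range that includes DMSO at 17.42. A comparison of the mix with DMSO therefore also compares an array nearly without oocyte transcripts with one that is rich in them, and exposure and oocyte content cannot be told apart. In RNA of mixed cells, fewer cells of a type and less RNA per cell cannot be told apart either.

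With the mix, every measured immune beta subunit and both subunits of the psme1 and psme2 cap were higher. The standard subunits they replace, psmb5, psmb6 and psmb7, lay between -0.90 and 0.00 as deposited and between -0.41 and 0.78 after cyclic loess normalization. The immune forms differed from DMSO by 1.26 to 3.31, with a median of 2.75 over 5 genes, against 0.13 over the 7 standard beta subunits and -0.01 over all 8793 genes. With the single compounds the standard particle lay close to DMSO. Over the arrays without the mix, psme1, psme2, psmb12, psmb9a and psmb8a had the widest ranges of all members on the probe sets used. These 5 genes were all lower with formaldehyde than with DMSO, while with benzene psme1 and psme2 were higher and the other 3 lower. The plot of differences by role shows these patterns for all 50 genes.

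**Figure D1:**
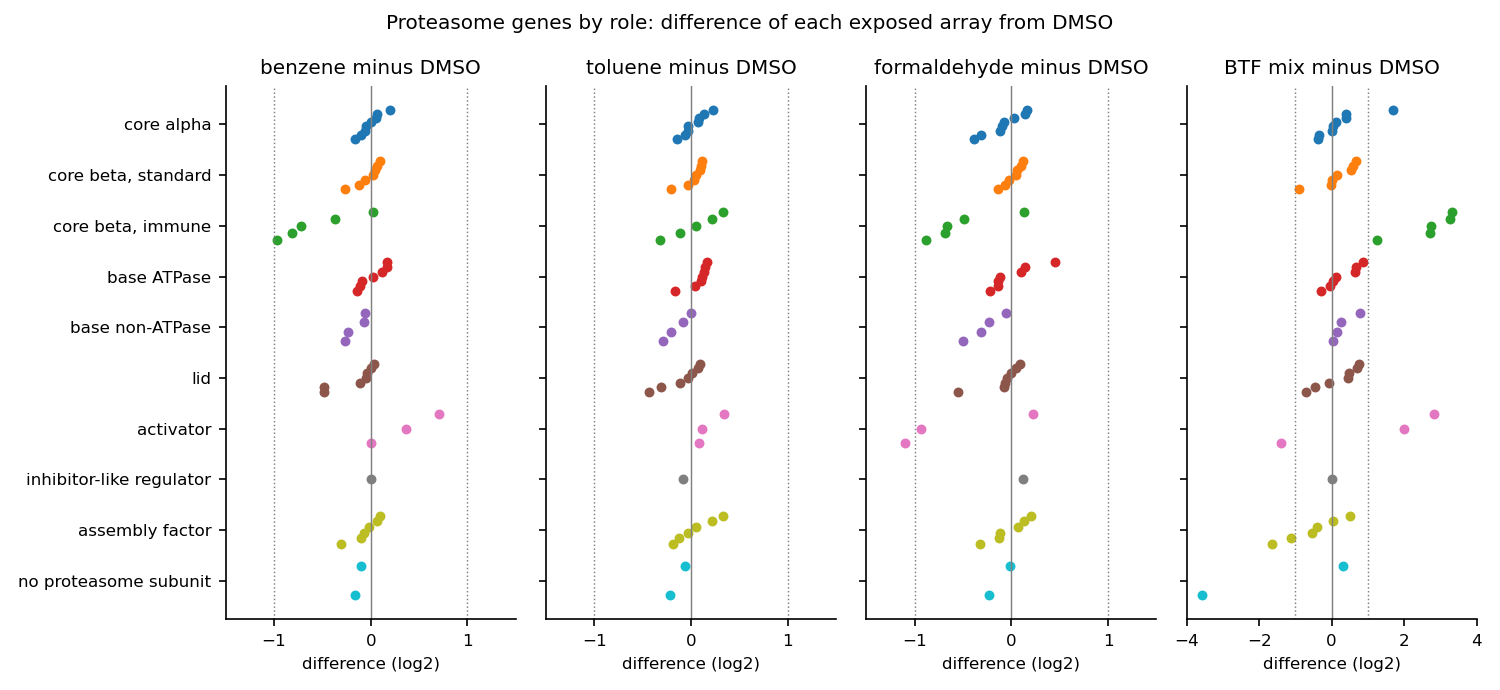
Differences from DMSO (log2, x axis) of the 50 genes by role (y axis), 1 panel for each exposed array; each point is 1 gene, and dotted lines mark 2-fold. The mix panel has a wider x axis. The 5 immune beta subunits lie between 1.26 and 3.31 with the mix, while the 7 standard beta subunits lie between -0.90 and 0.67 as deposited.

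The gene psmb8a codes for the immune form of the chymotrypsin-like beta5 subunit, which replaces psmb5. Its level was 5.98 with benzene, 6.47 with toluene, 6.13 with formaldehyde and 10.07 with the mix, against 6.79 with DMSO. The mix array was thus higher by 3.28, and the 3 single compounds lay at -0.82, -0.32 and -0.66 in the same order. The level of psmb5 was 8.89 with benzene, 8.94 with toluene, 8.89 with formaldehyde and 8.85 with the mix, against 8.85 with DMSO. Across the 5 arrays psmb5 stayed within 0.10 as deposited, while psmb8a spanned 4.09. With the mix psmb5 lay at 0.41 after quantile and 0.78 after cyclic loess normalization.

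At the beta1 site the standard subunit is psmb6, the immune form is psmb9a, and RefSeq lists beta1t as another name of psmb12. For psmb9a the level was 5.81 with benzene, 6.75 with toluene, 5.84 with formaldehyde and 9.24 with the mix, against 6.53 with DMSO. For psmb12 it was 6.24 with benzene, 7.55 with toluene, 6.34 with formaldehyde and 9.97 with the mix, against 7.22 with DMSO. Both genes were high on the mix array and had their lowest values with benzene and formaldehyde. The standard psmb6 had 10.43 with benzene, 10.66 with toluene, 10.66 with formaldehyde and 10.67 with the mix, against 10.69 with DMSO. With the mix, psmb9a was higher by 2.71 and psmb12 by 2.75, and psmb6 lay at -0.02.

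At the beta2 site, which cuts after basic residues, the standard subunit is psmb7, and RefSeq lists beta2i for psmb10 and beta2ta for psmb13a. The level of psmb10 was 8.59 with benzene, 8.46 with toluene, 8.69 with formaldehyde and 9.82 with the mix, against 8.57 with DMSO. For psmb13a the values were 6.16 with benzene, 6.57 with toluene, 6.03 with formaldehyde and 9.84 with the mix, against 6.52 with DMSO. The standard psmb7 had 10.91 with benzene, 11.0003 with toluene, 10.91 with formaldehyde and 10.07 with the mix, against 10.97 with DMSO. This was the standard beta subunit that was lowest with the mix, at -0.90, while psmb10 was higher by 1.26 and psmb13a by 3.31. Set against psmb7, the difference with the mix was larger by 2.16 for psmb10 and by 4.22 for psmb13a. The corresponding gap was 3.27 for psmb8a over psmb5, 2.73 for psmb9a over psmb6 and 2.78 for psmb12 over psmb6.

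**Figure D2:**
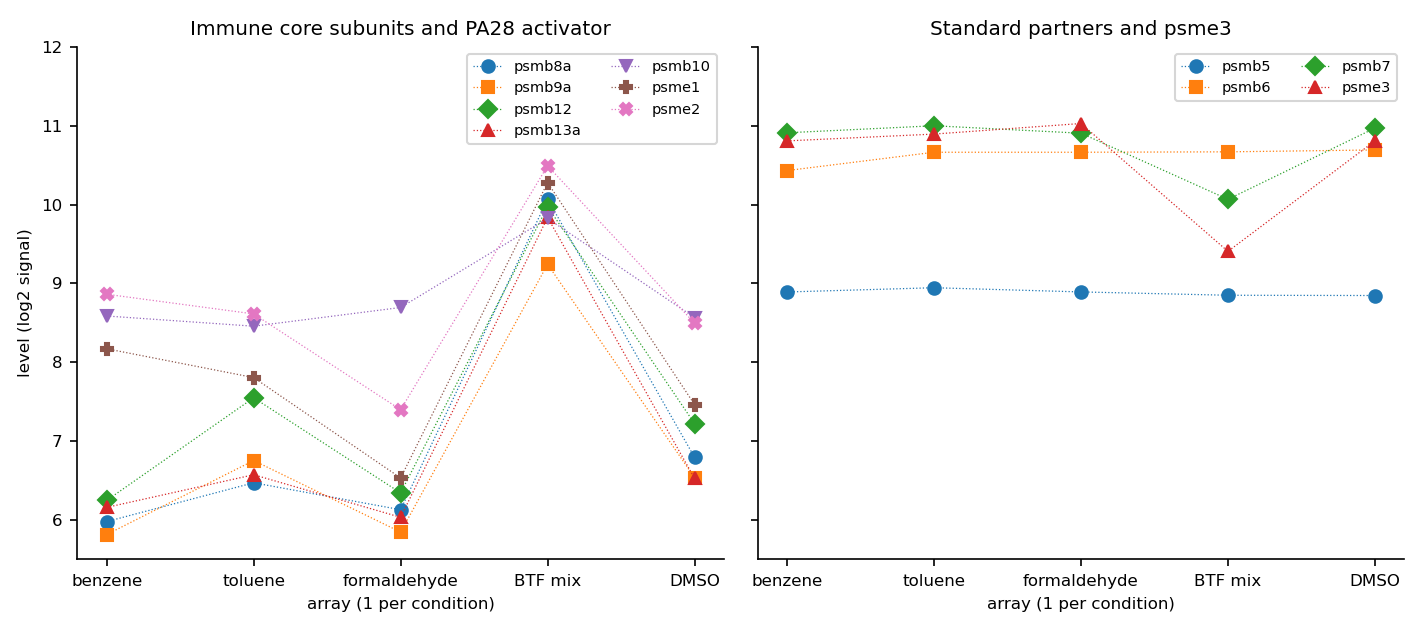
Levels (log2 signal, y axis) on the 5 arrays (x axis) of the immune beta subunits with psme1 and psme2 (left) and of the standard partners with psme3 (right); thin lines only join the points of a gene. On the left all 7 genes are highest with the mix, and on the right psmb5 and psmb6 are nearly level as deposited while psmb7 and psme3 are lowest there.

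In RefSeq's gene table (assembly GRCz12tu) psmb13a, psmb8a, psmb12 and psmb9a follow each other on chromosome 19, next to class I MHC genes, whereas psmb10 lies on chromosome 4. The 4 neighbours were all higher with the mix by 2.71 to 3.31, and psmb10 by 1.26. On the arrays without the mix they shared an order that was seen only after their values were examined: each was lower with benzene and formaldehyde than with toluene and DMSO. Of all genes 12.4% have that order, and of the members 16 of 50 have it. Among the 4 neighbours the differences behind the order were -0.37 to -0.97 with benzene and -0.49 to -0.88 with formaldehyde, against -0.32 to 0.33 with toluene. The levels of psmb8a, psmb9a and psmb13a stayed under 7.02, the median of all values, on each of these 4 arrays.

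The measured genes around this cluster lay between -2.97 and 0.99 with the mix. The class I gene mhc1uka lay at 0.95 with the mix and the peptide loading factor tapbp.1 at 0.54. On the other side, the chromatin reader brd2a lay at -1.53, the steroid dehydrogenase hsd17b8 at -1.37 and rxrba, a retinoid receptor, at -0.35. Further out, sdha, a subunit of mitochondrial succinate dehydrogenase, lay at 0.99 with the mix and had the same order on the other 4 arrays as the cluster, with -0.35 with benzene, -0.22 with toluene and -0.59 with formaldehyde. The gene zbtb22b had that order too, and lay at -2.97 with the mix. The MHC class I region of zebrafish holds haplotypes that differ in their genes, and a probe set is built on a single sequence. The class I gene mhc1ufa lay at -5.19 with benzene, -5.30 with toluene, -5.03 with formaldehyde and 2.14 with the mix. Another, mhc1zba, lay at 0.10 with benzene, 4.77 with toluene, 3.81 with formaldehyde and 0.44 with the mix. Neither mhc1ufa nor mhc1zba is among the genes examined around the cluster. Their part in the values of the immune subunits was not tested.

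The activator genes split into psme1 and psme2 on one side and psme3 on the other. The level of psme1 was 8.17 with benzene, 7.80 with toluene, 6.53 with formaldehyde and 10.28 with the mix, against 7.46 with DMSO. For psme2, whose product alternates with that of psme1 in the ring, it was 8.86 with benzene, 8.61 with toluene, 7.40 with formaldehyde and 10.49 with the mix, against 8.49 with DMSO. The 2 genes kept the same order of arrays, from formaldehyde as the lowest through DMSO, toluene and benzene to the mix. They lie on chromosomes 24 and 12. The leukocyte markers lcp1, coro1a, laptm5, cd74b, ptprc and ikzf1 had that order too. Most of the measured leukocyte markers did not, among them lyz, cd74a, mhc2daa, cxcr4b, rag1 and rag2. The share of all genes with that order was not computed. Benzene and toluene were nearly level for ptprc, at 6.7665 and 6.7659, and for laptm5, at 7.38 and 7.35. The nuclear form psme3 had 10.81 with benzene, 10.89 with toluene, 11.03 with formaldehyde and 9.41 with the mix, against 10.81 with DMSO, and so had the opposite order at both ends. With the mix psme1 was higher by 2.82 and psme2 by 1.998, and psme3 lay at -1.40.

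With formaldehyde psme1 and psme2 had the lowest differences of all 50 genes, followed by psmb12 at -0.88, psmb9a at -0.69 and psmb8a at -0.66. The difference from DMSO was -0.93 for psme1 and -1.099 for psme2, and against the average of both aromatic solvents it was -1.46 for psme1 and -1.34 for psme2. The formaldehyde level of psme1, 6.53, lay under 7.02, the median of all values. At a threshold of 2-fold lower than DMSO, 1 of the 50 genes was counted with formaldehyde, psme2, against 1.94% of all genes. After quantile normalization the count was 0, with psme2 at -0.97. Against that average 2 of 50 were counted, psme1 and psme2, beside 2.99% of all genes. Leukocyte markers were lower with formaldehyde as well: the median of 17 was -0.63, 5 of them were at least 2-fold lower, and the summed level was 10.98, against 12.36 with DMSO. The pan-leukocyte gene ptprc lay at -0.70 and the light chain b2m of class I MHC at -1.27. The 14 measured genes of class I antigen processing, b2m among them, had a median of -0.11 with formaldehyde, and 5 lay above DMSO. Skeletal muscle markers went the other way with formaldehyde, with a median of 0.68 over 15 genes. Of these, 5 were at least 2-fold higher, beside 1.1% of all genes. The part of cell types in the values of psme1 and psme2 was not tested.

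With benzene the psme1 and psme2 cap and most of the immune core went apart. The cap genes lay at 0.71 for psme1 and 0.37 for psme2, and the immune core genes at -0.82 for psmb8a, -0.72 for psmb9a, -0.97 for psmb12, -0.37 for psmb13a and 0.02 for psmb10. Leukocyte markers had a median of 0.14 with benzene and a summed level of 12.84, against 12.36 with DMSO. With toluene the immune core lay between -0.32 and 0.33 and the cap at 0.34 for psme1 and 0.12 for psme2.

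Benzene and toluene differ by a methyl group, and as their doses are not given their arrays are only set side by side. Between them 1 of 50 genes was at least 2-fold higher with toluene, psmb12 at 1.30, against 0.955% of all genes. No member was at least 2-fold lower with toluene, against 0.421% of all genes. At least 0.5 apart in either direction were psmb12, psmb9a at 0.94 and the assembly factor psmg3 at 0.64, which makes 3 of 50, beside 6.10% of all genes. The benzene level of psmb12 and both levels of psmb9a lay under 7.02, the median of all values. The median over the members of toluene minus benzene was 0.04.

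The standard particle was nearly level on the arrays without the mix. Over these 4 arrays, 41 subunits and factors outside the immune core and the psme1 and psme2 cap had a median range of 0.20, and the largest, that of psmg3, was 0.64. The median range over all genes was 0.31. The range was at least 0.5 for 9 of the 50 members, beside 25.6% of all genes. These were 4 immune subunits, psme1, psme2, psmg3 and the lid subunits psmd3 and psmd11b. No member was at least 2-fold higher with benzene (1.65% of all genes), toluene (1.74%) or formaldehyde (1.1%). None was at least 2-fold lower with benzene (0.842%) or toluene (0.535%). At least 0.5 apart from DMSO were 4 of 50 with benzene, against 10.3% of all genes. The same count was 0 of 50 with toluene, against 10.3%, and 6 of 50 with formaldehyde, against 14.0%. Only psmd3 among these 10 calls lay outside the immune core and the activator. These ranges and counts hold for the probe sets used. Second probe sets lay at 0.80 with benzene and 0.69 with formaldehyde for psmd12. Those of psmf1 and psmd1 lay at 0.53 with formaldehyde and -0.51 with toluene in that order.

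The alpha subunits form the outer rings and the gate of the core. With the mix 7 of the 8 lay between -0.37 and 0.40, and psma6l stood apart. It had 7.07 with benzene, 7.10 with toluene, 6.74 with formaldehyde and 8.81 with the mix, against 7.13 with DMSO, a difference of 1.68 with the mix. RefSeq lists psma6b both as another name of psma6l and as a separate gene, which was not analysed here. Another alpha6 gene, psma6a, had 10.85 with benzene, 10.86 with toluene, 10.94 with formaldehyde and 10.40 with the mix, against 10.78 with DMSO. It was the lowest of the alpha genes with the mix, at -0.37. Of the others psma2b lay at 0.40, psma4 at 0.39, psma8 at 0.13, psma2a at 0.05, psma1 at 0.00 and psma5 at -0.34.

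The standard beta subunits without an active site, psmb1, psmb2, psmb3 and psmb4, lay at 0.60, 0.54, 0.67 and 0.13 with the mix. The highest, psmb3, had 10.80 with benzene, 10.78 with toluene, 10.79 with formaldehyde and 11.40 with the mix, against 10.73 with DMSO. On the arrays without the mix it stayed within 0.06. Of the subunits with an active site, psmb5 lay at 0.00 and psmb6 at -0.02, and psmb7 at -0.90, so the 7 standard beta genes did not move alike on this array.

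The base opens the gate and threads the protein in. Its 7 ATPase genes lay between -0.29 and 0.88 with the mix, with a median of 0.12. The highest, psmc1b, had 8.75 with benzene, 8.83 with toluene, 8.60 with formaldehyde and 9.61 with the mix, against 8.73 with DMSO, on a probe set that the platform marks as shared by several transcripts. Its other 2 probe sets differed by 0.94 and 0.20. The lowest, psmc3, had 10.79 with benzene, 10.74 with toluene, 10.77 with formaldehyde and 10.62 with the mix, against 10.91 with DMSO. Between them were psmc2 at 0.68, psmc5 at 0.64, psmc4 at 0.12, psmc1a at 0.03 and psmc6 at -0.04. With formaldehyde psmc4 lay at 0.45, the highest of all members on the probe sets used. Second probe sets lay higher for psmd12, at 0.69, and for psmf1, at 0.53.

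The other base genes include the large scaffolds psmd1 and psmd2 and the ubiquitin receptor psmd4, present as psmd4a and psmd4b. The gene psmd4b had 8.74 with benzene, 8.80 with toluene, 8.74 with formaldehyde and 9.59 with the mix, against 8.80 with DMSO. With psmd1 the values were 9.63 with benzene, 9.56 with toluene, 9.54 with formaldehyde and 9.89 with the mix, against 9.86 with DMSO. The 4 genes lay between 0.03 and 0.78 with the mix. Each was at or below DMSO with all 3 single compounds, by no more than 0.50, the value of psmd2 with formaldehyde. These bounds hold for the probe sets used. A second probe set for psmd1 lay at -0.51 with toluene and -0.055 with the mix.

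The lid holds the scaffold subunits that carry the deubiquitinating centre. Among its 7 genes psmd11b was highest with the mix, with 6.70 with benzene, 6.88 with toluene, 7.24 with formaldehyde and 7.93 with the mix, against 7.18 with DMSO. Lowest was psmd12, with 9.55 with benzene, 9.76 with toluene, 9.59 with formaldehyde and 8.96 with the mix, against 9.67 with DMSO. A second probe set for psmd12 differed from DMSO by 0.09 with the mix, 0.80 with benzene and 0.69 with formaldehyde, so the direction of this gene depends on the probe set. The remaining lid genes lay at 0.70 for psmd7, 0.49 for psmd3, 0.44 for psmd13, -0.06 for psmd6 and -0.46 for psmd8. The gene psmd3 was the lid gene with the largest differences on all 3 single-compound arrays, at -0.49 with benzene, -0.43 with toluene and -0.55 with formaldehyde. All 3 arrays share the DMSO array, on which psmd3 had 10.19.

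Assembly factors help to build the rings and the base and are not kept in the finished particle. The gankyrin gene psmd10, a chaperone of the base, had 9.99 with benzene, 10.10 with toluene, 10.09 with formaldehyde and 8.23 with the mix, against 9.89 with DMSO. At the other end psmd5, also a base chaperone, had 7.68 with benzene, 7.66 with toluene, 7.66 with formaldehyde and 8.28 with the mix, against 7.78 with DMSO. With the mix the difference was thus -1.66 for psmd10 and 0.50 for psmd5. The third base chaperone, psmd9, lay at -1.13 (-0.77 on its other probe set). Of the core assembly factors, psmg3 lay at -0.54, psmg2 at -0.40 and psmg1 at 0.05, with -0.35 on the other probe set of psmg1. The regulator psmf1 had 8.99 with benzene, 8.90 with toluene, 9.11 with formaldehyde and 9.004 with the mix, against 8.99 with DMSO. Its other probe set differed from DMSO by 0.28 with benzene, 0.26 with toluene, 0.53 with formaldehyde and -0.15 with the mix.

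The genes that are no subunits had 7.65 with benzene, 7.59 with toluene, 7.57 with formaldehyde and 4.24 with the mix, against 7.81 with DMSO, for psmc3ip. For psme3ip1 the levels were 8.07 with benzene, 8.12 with toluene, 8.17 with formaldehyde and 8.49 with the mix, against 8.18 with DMSO. The difference of -3.56 for psmc3ip was the lowest of the 50. Its other probe set lay between 4.30 and 4.34 on all arrays, and the platform marks both as able to bind unrelated transcripts. The other 3 probe sets of psme3ip1 differed by -0.35 to 0.12 with the mix.

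With the mix, 8 of 50 members were at least 2-fold higher than DMSO, against 20.6% of all genes, and 4 were at least 2-fold lower, against 27.8%. As deposited, neither count is above the share over all genes. After cyclic loess normalization 20 of 50 members, or 40.0%, were at least 2-fold higher, against 21.5% of all genes, and 1 was lower, against 20.6%. After quantile normalization 11 were higher, against 21.7%, and 3 lower, against 24.9%. As deposited, the 8 were the 5 immune beta subunits, psme1, psme2 and psma6l, and the 4 were psme3, psmd9, psmd10 and psmc3ip. The same 8 were at least 1 above the highest of the 4 other arrays, beside 17.6% of all genes, so these calls did not rest on the DMSO array. At least 1 below the lowest of the 4 were psme3, psmd10 and psmc3ip, or 3 of 50, against 23.5%. Differences of at least 0.5 were found for 25 of 50 members, against 68.7% of all genes.

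Where 2 genes code for a subunit of the same place, the members of a pair differed in size with the mix. The gap was 2.05 for psma6l over psma6a, 0.85 for psmc1b over psmc1a, 0.64 for psmd4b over psmd4a and 0.36 for psma2b over psma2a. For the activators it was 4.22 for psme1 and 3.401 for psme2, each over psme3. For the pairs outside the activators, which gene stood first was set with earlier results of these data known. The sign of those gaps therefore carries no weight. The gap of psma2b is smaller than 0.62, the median gap with the mix between probe sets of a gene. On the single-compound arrays the gap of psma6l over psma6a was -0.12 with benzene, -0.11 with toluene and -0.55 with formaldehyde. Genes of a family have similar sequences, and binding of a probe set to a relative's transcript was not tested.

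**Figure D3:**
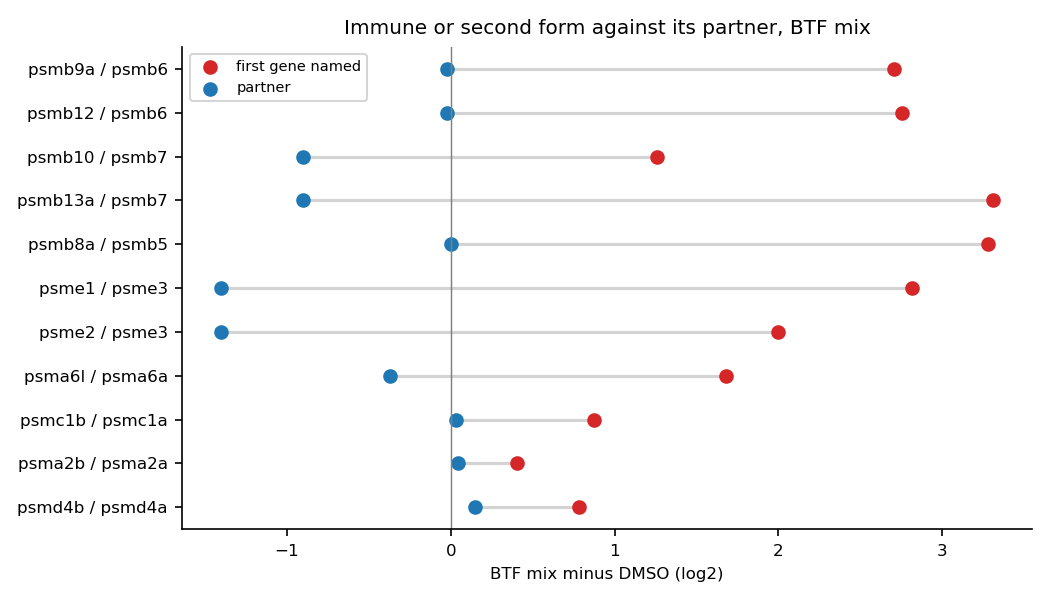
Difference of the BTF mix from DMSO (log2, x axis) for 11 pairs of genes (y axis); red points are the immune or second form named first and blue points its partner, joined by a grey line. The red point lies to the right in all 11 pairs. The gap runs from 0.36 for psma2b over psma2a to 4.22 for psmb13a over psmb7 and psme1 over psme3. In pairs of second forms, which gene is named first was set with earlier results known, so their side carries no weight. The partners psmb6, psmb7 and psme3 are used repeatedly.

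How far the standard particle lay from DMSO on the mix array depends on the scaling between arrays. After cyclic loess normalization of the deposited values the 41 subunits and factors outside the immune core and the cap had a median of 0.78, with 13 at least 2-fold higher and 0 lower, beside 21.5% and 20.6% of all genes in that order. As deposited the median was 0.05, with 1 higher and 3 lower, and after quantile normalization it was 0.28, with 4 higher and 2 lower, beside 21.7% and 24.9% of all genes. The immune beta subunits had medians of 2.75 as deposited, 2.94 after quantile and 2.88 after loess normalization. Genes with a mean level of 10 to 12, a range that holds many of the standard subunits, had a median of -0.63 as deposited and -0.15 after loess. The signs of psmb7, psme3, psmd9, psmd10 and psmc3ip stayed negative under all 3 scalings. Those of psma5, psma6a, psmc3, psmd8, psmd12, psmg2 and psmg3 turned positive after loess only. For psmb6, psmc6 and psmd6 the sign was positive after quantile normalization and after loess. Each immune form lay above its standard partner under the 3 scalings.

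**Figure D4:**
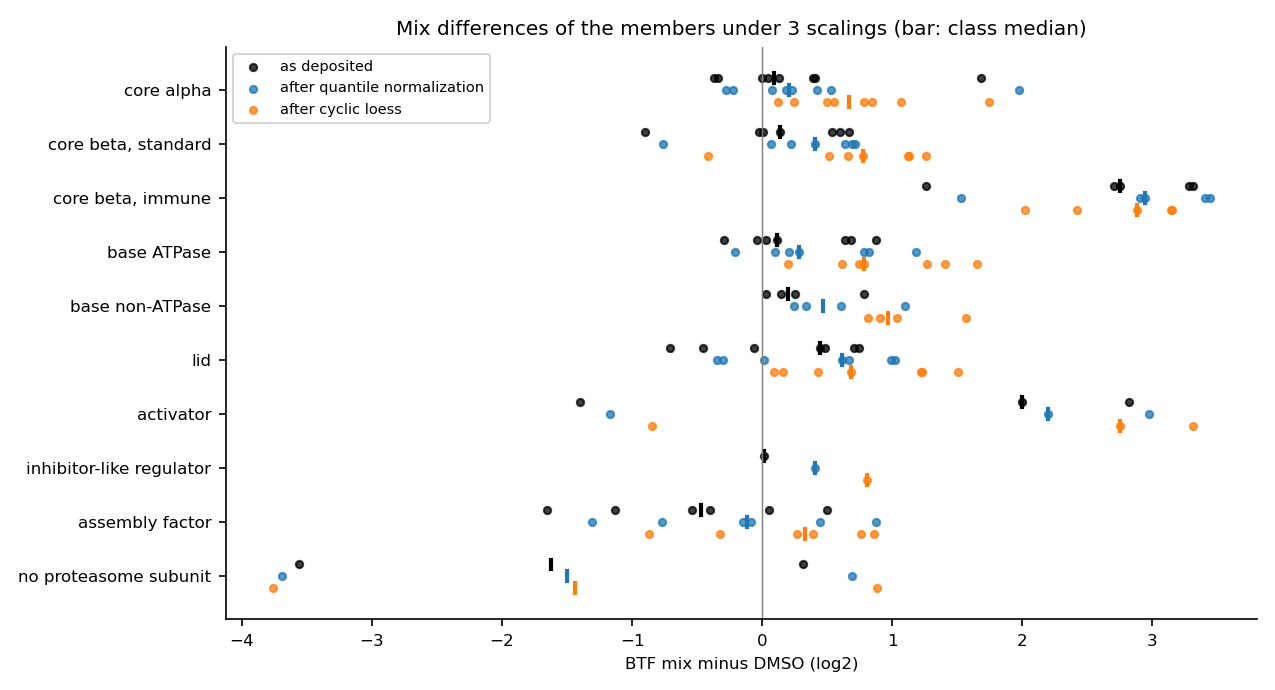
Difference of the BTF mix from DMSO (log2, x axis) of the members by role (y axis) as deposited (black), after quantile normalization (blue) and after cyclic loess (orange); points are genes and bars class medians. The standard class medians shift to the right after loess, as for the base ATPases, from 0.12 as deposited to 0.78. The median of the immune beta subunits stays between 2.75 and 2.94. Single genes shift more, as psmb10 from 1.26 as deposited to 2.02 after loess and psmb9a from 2.71 to 2.42.

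Partners of the proteasome did not follow the immune subunits. Of 41 listed genes for ubiquitin, shuttle factors and other partners 28 were measured, with a median of -0.21 with the mix. At least 2-fold higher were 3 and lower 4, beside 20.6% and 27.8% of all genes. Highest were the stress regulator nfe2l2a at 2.94, the polyubiquitin gene ubb at 1.12 and the shuttle factor rad23b at 1.01. Lowest were nploc4, a cofactor of the unfoldase vcp, at -1.40, zfand5b at -1.19 and akirin2, which brings proteasomes into the nucleus in mammals, at -1.10. The core assembly factor pomp lay at 0.42. None of the 28 was 2-fold apart on a single-compound array. Of all genes 0.535% to 1.94% were at least 2-fold higher or lower there, for each array and direction.

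The lists for class I antigen processing and for the interferon response went both ways with the mix. Of all genes 20.6% were at least 2-fold higher and 27.8% lower. Of 27 listed antigen processing genes 14 were measured, and tap1, tap2a and nlrc5 were not. The list also holds the chromatin reader brd2a and its relative brd2b. At least 2-fold higher were 3 of the 14 and lower 5, with a median of 0.01. The 5 were erap1b, calr, calr3a, calr3b and brd2a. The highest were mhc1ufa, b2m at 1.99 and mhc1uda at 1.41, and the lowest the peptide trimmer erap1b at -2.49, the chaperone calr at -1.80 and brd2a. Of 24 listed interferon response genes 11 were measured. Of these 4 were at least 2-fold higher and 1 lower, with a median of 0.39. The transcription factors irf1b and irf9 lay at 1.87 and 1.83 and the ubiquitin ligase trim25 at 1.62, while irf1a lay at -1.33, the feedback inhibitor socs1a at -0.63 and ifi44a6 at -0.36. On the single-compound arrays ifi44a6 lay at -2.90 with toluene and -2.06 with formaldehyde, and isg15, a ubiquitin-like modifier, at -1.77 with toluene, -1.43 with formaldehyde and -0.79 with benzene, against 1.27 with the mix. The signs of isg15 and irf7 were those of psmb8a on all 4 exposed arrays, whereas psmb12, psmb9a and psmb13a lay above DMSO with toluene. Standard subunits such as psmd1, psmd2 and psmb1 had these signs too. The other measured interferon response genes did not, and irf1b, irf9 and trim25 lay above DMSO with benzene.

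Leukocyte markers moved with the immune subunits on the mix array. As deposited, all 17 measured of 25 listed were above DMSO there, with a median of 2.38, beside 4281 of all 8793 genes. At least 2-fold higher were 13, beside 20.6% of all genes. After quantile normalization 15 of the markers were above DMSO, and 13 after cyclic loess normalization. They included ptprc at 2.62, the actin-binding lcp1 at 2.97, coro1a at 2.96, the lysozyme lyz at 4.13 and the myeloid factor spi1b at 2.48, while the lymphocyte recombinase genes rag1 and rag2 lay at 0.07 and 0.06. Their summed level was 14.92 with the mix and 10.98 to 13.02 on the other 4 arrays. Skeletal muscle markers were higher too, with a median of 1.87 and 14 of 15 at least 2-fold higher. Of 10 testis markers 3 were at least 2-fold higher and 1 lower, beside 20.6% and 27.8% of all genes. With toluene the leukocyte median was 0.23 and with benzene 0.14, where the MHC-linked immune subunits had medians of 0.13 and -0.77. The part of leukocytes, and of the missing oocyte transcripts, in the values of the immune proteasome on the mix array was not tested.

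**Figure D5:**
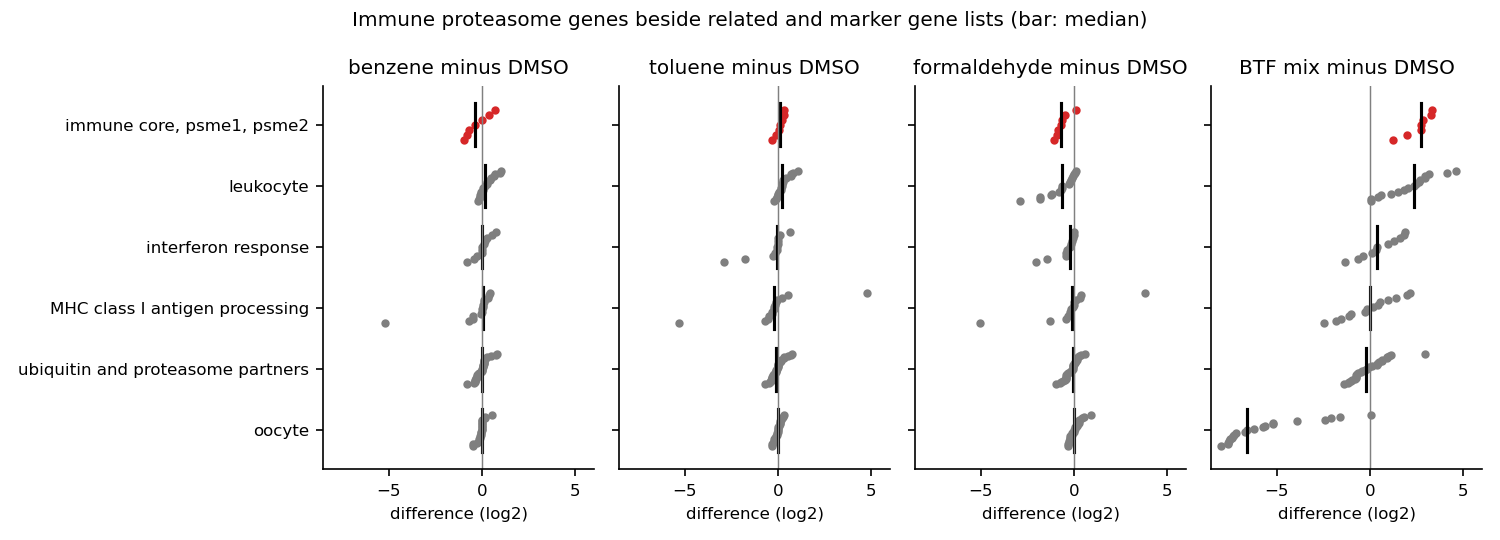
Differences from DMSO (log2, x axis) of the 5 immune beta subunits with psme1 and psme2 (red) and of related and marker gene lists (grey; y axis), 1 panel for each exposed array; points are genes and bars medians. With the mix the leukocyte list has a median of 2.38 and the oocyte list one of -6.60, and with formaldehyde the leukocyte list lies at -0.63.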

How the data were processed

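Total RNA of 5 samples, 1 per condition, was hybridised to Affymetrix zebrafish arrays. The authors deposited a log2 value for each probe set on each array, between 3.15 and 15.04. The tools named per the submitters' processing notes are Affymetrix Expression Console 1.1, MAS5 and RMA; their roles are not stated in the sources used here, and the log base was taken from the range. The number of arrays limits the precision.

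Control probe sets (115) were left out. Of the other 15502, 10795 had exactly 1 symbol in the platform annotation, for 8793 genes. Each gene was represented by its probe set of highest mean; 42 of the 50 members had a single probe set. Chromosomes and other names came from RefSeq's table, where all 50 matched by symbol; the build of the array's design is not given, and no coordinates were used. Members, roles, gene lists and tests were chosen with earlier results of these data known. Values on every array are printed for immune beta subunits, activators, their standard partners, members 2-fold apart with a single compound and the extremes of each class with the mix; of related lists, the 3 highest and lowest with the mix and genes 2-fold apart with a single compound are named. A few others were chosen after their values were seen. Differences of at least 1 were counted beside the share of all genes. Steps were tested on simulated data. Alternatives were quantile and cyclic loess normalization (limma 3.58.1, R 4.3.3), averaging the probe sets of a gene, a level filter at 7.02, other reference arrays and updated symbols.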

Additional observations from a re-analysis of the deposited data

How the results depend on the processing

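No paired analysis was possible because each condition has 1 array. A median was taken as moved where it shifted by more than the median gap between the probe sets of a gene, which was 0.17 for benzene, 0.18 for toluene, 0.20 for formaldehyde, 0.62 for the mix and 0.13 for toluene minus benzene; a count was taken as moved beyond 1.5 times. Of 226 recomputed values of 27 results, 211 stayed within these bounds and 15 moved. The 211 include the level filter and the updated symbols, which changed no value, so their number is no measure of stability. Besides the assembly factors below, the sign changed for the median of all members with benzene (0.02 after loess, -0.05 as deposited) and for that of standard beta subunits with benzene (-0.03 against the other single-compound arrays, 0.02 against DMSO), both near 0. Cyclic loess moved the mix: the median of all members was 0.81, with 20 genes at least 2-fold higher and 1 lower, beside 21.5% and 20.6% of all genes. The class medians were 0.78 for standard beta subunits, 0.78 for base ATPases, 0.97 for other base genes, 2.75 for activators and 0.33 for assembly factors, the last with the opposite sign to the -0.47 as deposited. Quantile normalization left 0 members at least 2-fold lower with formaldehyde. With the mean of the other single-compound arrays in place of DMSO, 1 member was at least 2-fold higher with benzene, 1 higher with toluene and 2 lower with formaldehyde. For formaldehyde the share of all genes was 2.99%. The shares for benzene and toluene against that reference were not computed, so these counts carry no weight. The immune beta medians against that mean were -0.32 with benzene, 0.48 with toluene and -0.33 with formaldehyde. The mean of probe sets, the level filter, updated symbols and removal of the 2 genes that are no subunits moved none of the results. Centring on all genes moved none either, nor, for the mix, did the mean of all 4 other arrays. Removal, centring and the mean of 4 arrays were chosen after seeing the data. The level filter could move nothing, because no member lay under 7.02 on every array. Of these, psmb8a, psmb9a and psmb13a reached it on the mix array only. The causes of the moves were not tested. Low signals limit what can be said of psmb8a, psmb9a and psmb13a without the mix, and of psmb12 with benzene and formaldehyde. The same holds for psme1 and psma6l with formaldehyde, psmd11b with benzene and toluene, and psmc3ip with the mix.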
